A study of Mus musculus with 23 samples.

Results

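Stem cell enriched (SCe) organoids were profiled both for ribosome protected fragments (RPFs, or footprints) and for mRNA, and the comparison here is between those assays, gene by gene, in that single culture state. It rests on 6 of the 23 libraries of the series, 3 of Ribo-seq and 3 of RNA-seq, chosen by their labels and matched by organoid number. Organoids are epithelial cultures grown from intestinal crypts. All 6 came from C57BL/6 mice that carry VillinCre.ERT2.RPL22.HA, that is, a tamoxifen-inducible Cre driven by the Villin promoter of the gut epithelium and a ribosomal protein Rpl22 with an HA tag. All were grown in ENR medium with 10 µM CHIR 99021, an inhibitor of GSK3, and 1.5 mM valproic acid, an inhibitor of histone deacetylases. For Ribo-seq, translation was stopped with cycloheximide at 100 µg/ml, ribosomes were pulled down by the HA tag and the mRNA they did not cover was digested with RNase I. For RNA-seq the label names polyA RNA. No genotype or treatment is contrasted. The labels do not say whether equal organoid numbers in both assays are the same culture, or whether the numbers are separate mice, so all p-values measure only the spread between these libraries.

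Translation efficiency (TE) is the footprint density of a gene divided by its mRNA density. An mRNA that recruits ribosomes often, or on which they move slowly, carries many footprints for its amount. Known controls of TE lie in the leader, the part before the coding sequence, where short upstream open reading frames (uORFs) take up scanning ribosomes and where a terminal oligopyrimidine (TOP) start ties ribosomal protein mRNAs to mTORC1. The intestinal stem cell divides at the base of the crypt and renews the epithelium, and mTORC1 is the kinase complex that sets translation by nutrients and growth signals. Here a density is the reads of a gene scaled to the library total (RPM) per kb of its summed sequence entries. TE is given as log2 with the median tested gene at 0, so that a value of 1 is a 2-fold higher ratio than in the median gene. The errors are standard errors (SE) of the fit over n = 3 libraries per assay.

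Histone mRNAs lay at the upper end of the range of TE. Replication-dependent histone mRNAs end in a stem-loop and not in a polyA tail, and the motif CTTTTNAG was looked for on the transcript's own strand within 100 bases after the stop codon. It was present in 42 of the 65 genes of this family (64.6%), against 174 of 22165 other genes (0.785%). A member of each histone class and the variant gene H2afx are shown 5′ to 3′ with the motif in capitals, from the GRCm38 (mm10) genome, to let the flanking arms of the hairpin be compared.
Hist1h1d: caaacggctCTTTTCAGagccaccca
Hist2h2aa2: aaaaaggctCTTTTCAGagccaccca
Hist1h2be: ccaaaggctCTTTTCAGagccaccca
Hist2h3c2: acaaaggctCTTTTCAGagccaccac
Hist1h4d: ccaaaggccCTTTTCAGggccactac
H2afx: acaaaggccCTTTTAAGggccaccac
They lie at chr13:23555782-23555807 (plus strand), chr3:96239779-96239804 (minus), chr13:23585526-23585551 (minus), chr3:96238480-96238505 (minus), chr13:23581945-23581970 (plus) and chr9:44335235-44335260 (plus), all in the 3′ untranslated region. In the known histone hairpin the arms on both sides of the loop are complementary.

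Short uORFs stood in the leaders of several of the mRNAs with few footprints for their amount, and also in others. Cebpa and Pmaip1 have uORFs that encode 5 and 8 amino acids, with TEs of -0.27 and 0.49 (edgeR adjusted p = 0.547 and 0.285). Upstream AUGs are common. Of the tested genes, 4657 had none, 1957 had 1, 828 had 2 and 1177 had 3 or more. In the uORFs printed here the start and stop codons are in capitals, and each was read from the transcript with most reads on the same build.
Amd1: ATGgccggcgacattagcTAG
Atf4: ATGgcgtatTAG
Odc1: ATGacgacgtgctcggcgtataagTAG
Ppp1r15b: ATGacgTGA
Those of Amd1 (chr10:40302155-40302175, minus strand) and Atf4 (chr15:80255582-80255593, plus) encode 6 and 3 amino acids. Those of Odc1 (chr12:17544921-17544947, plus) and Ppp1r15b (chr1:133131245-133131253, plus) encode 8 and 2. The Amd1 uORF starts at base 12 of a leader of 328 bases. Atf4, a transcription factor of the stress response, has upstream AUGs at bases 120, 399 and 498 of a leader of 594 bases, and the last of them opens a frame that runs past the main start codon.

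The Ribo-seq libraries held 1981129, 1106178 and 4242425 footprints on coding entries, and the RNA-seq libraries 27439459, 67598878 and 59404042 reads. Of 22230 genes in both references, 8720 passed the count filter in each assay alone, with a median of 283 footprints and 6920 mRNA reads per gene over 3 libraries. The label was checked against marker genes. Intestinal stem cell genes took 0.645%, 0.411% and 0.414% of the mRNA reads in organoids 1, 2 and 3, and enterocyte markers 0.0269%, 0.575% and 0.699%. The enterocyte markers thus exceeded the stem cell genes in the mRNA of numbers 2 and 3. Footprints had the reverse order in every library, with 0.420%, 0.692% and 0.726% on stem cell genes and 0.0911%, 0.357% and 0.364% on enterocyte markers. Paneth cell markers took 0.173% of the mRNA reads on average and goblet cell markers 0.0345%, and no tuft, stromal or immune marker was tested. Organoid number 1 stood apart from the others in its low enterocyte markers. Its ribosomal protein mRNAs took 13.2% of the footprints, against 7.63% and 7.53%. Log2 mRNA densities correlated at Pearson r = 0.996 between numbers 2 and 3 and at 0.934 and 0.935 with number 1 (across genes, a description). Values of lists without number 1 in either assay are given beside the lists, and the part of cell composition in them was not tested.

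Across genes, footprints followed mRNA with a wide spread. Log2 densities of the 8720 genes correlated at Pearson r = 0.818, 0.828 and 0.842 in organoids 1, 2 and 3. The points are genes of the same libraries and not independent. TE had an SD of 1.18 over genes, while a gene's TE varied over the 3 numbers with a median SD of 0.393. The gene at the 95th percentile had 11.4 times the TE of the gene at the 5th. TE was above the median gene in 1920 genes (22.0% of those tested) and below it in 2027 (23.2%), by edgeR's quasi-likelihood test with Benjamini-Hochberg adjustment at 0.05. A stricter test against a 2-fold difference called 515 genes above (5.91%) and 562 below (6.44%). These percentages are the background for the counts that follow. Other backgrounds hold for the alternatives given beside them. Without organoid 1, 2638 genes were above (27.8%) and 2696 below (28.4%) of 9487 tested. With TE centred within 10 bins of coding length, 1350 were above (15.5%) and 1490 below (17.1%) of the 8720.

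**Figure D1:**
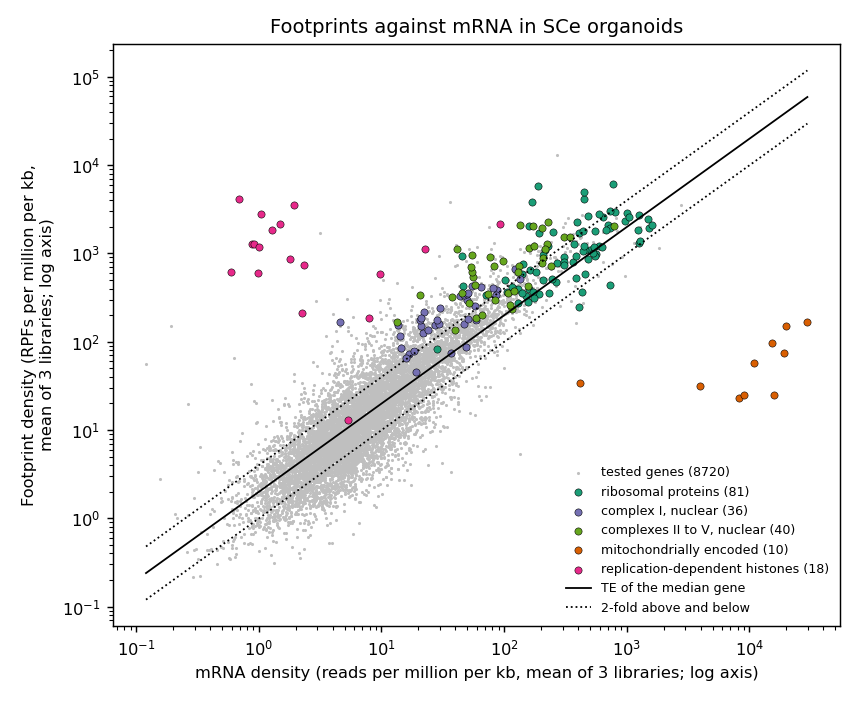
Footprint density against mRNA density of the 8720 tested genes, both in RPM per kb, as the mean of 3 libraries on log axes, with the solid line at the median gene's TE and dotted lines at 2-fold above and below. The 18 replication-dependent histone genes lie at the upper left and the 10 mitochondrially encoded genes at the lower right, while the 36 nuclear genes of complex I run mostly above the solid line.

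Replication-dependent histones, which package the DNA made in S phase, had a median TE of 8.73 over 18 tested genes, 17 of them called above and none below (19 of 19 above without organoid 1). Because 61 of the 65 genes share at least 10% of their coding 28-base windows with another gene, the reads of a single gene are uncertain and the family sums are the safer values. All 65 together took 7.97%, 5.22% and 3.07% of the footprints in organoids 1, 2 and 3, but 0.0471%, 0.0145% and 0.0156% of the mRNA reads. Their share was thus 169, 360 and 196 times larger among footprints. The lowest share among footprints was still far above the highest among mRNA reads. All 5 classes showed it, and to different degrees. For the linker histones H1 the ratio of shares was 25.4, 86.4 and 65.0. For H2B it was 149, 218 and 143, and for H2A 286, 1036 and 441. For the H3 genes it reached 1445, 7440 and 2785, resting on only 357, 125 and 154 mRNA reads, and for the H4 genes 1203, 2539 and 1005. Thus H1 had the smallest ratio of the 5 classes in every organoid number, and H3 the largest. The H1 ratio rests mainly on Hist1h1c, with 6850, 6271 and 5513 of the class's 7729, 6430 and 5684 mRNA reads. Hist1h1c had a TE of 3.56 ± 0.42 with 30.6% of its windows shared, while Hist1h1b, Hist1h1d and Hist1h1e stood at 9.62, 10.4 and 9.56.

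Hist4h4 (chr6:136801553-136804415, with 2.46% of its windows shared) had footprint densities of 7059, 3415 and 1934 and mRNA densities of 0.595, 0.720 and 0.735. Its TE of 11.56 ± 0.63 (edgeR adjusted p = 2.73e-05) was the highest of all named genes. Hist1h1b, a linker histone with 4.65% of its windows shared, had a TE of 9.62 ± 0.97 (edgeR adjusted p = 0.000184), with mRNA densities of 3.65, 0.374 and 0.469 that were highest in organoid 1. The exception was Hist2h2be at 0.34 ± 0.55 (edgeR adjusted p = 0.635), with footprint densities of 15.2, 11.9 and 12.3 and mRNA densities of 9.74, 3.06 and 3.09. The RNA-seq libraries are labelled polyA RNA, and mRNAs without a polyA tail are poorly taken up by a polyA selection; the part of that in these ratios was not tested.

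Replacement histones, made outside S phase and from polyadenylated mRNAs, had a median TE of 1.59 over 9 tested genes, with 6 above and none below. H2afx, which marks DNA breaks when phosphorylated and whose mRNA is known in a stem-loop and in a polyadenylated form, stood at 5.74 ± 0.49 (edgeR adjusted p = 9.82e-05), with 31.6% of its windows shared. Without genes that share at least 10% the list median was 1.05. Its footprint densities were 5458, 4290 and 1852 and its mRNA densities 51.2, 24.8 and 32.9. H3f3b and H3f3a, which encode the same histone H3.3, had TEs of 2.24 ± 0.27 and 1.59 ± 0.20, and 1.28 and 1.17 with read-weighted lengths. Within the bins of coding length they stood at 1.05 and 0.41, and the latter did not pass. H2afz stood at 1.03, H2afv at 2.34 and H2afj at 3.37 (18.2% shared), while H1f0 and H2afy had 0.32 and 0.42 and did not pass. Centred on genes of like coding length, the median was 0.41, with 4 above and 1 below, and H2afz moved to -0.15. Without organoid 1, 9 of 10 were above and none below. Outside both histone lists the stem-loop motif was found in 2 of the 493 genes called 2-fold above (0.406%), against 82 of all 8693 tested genes (0.943%).

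**Figure D2:**
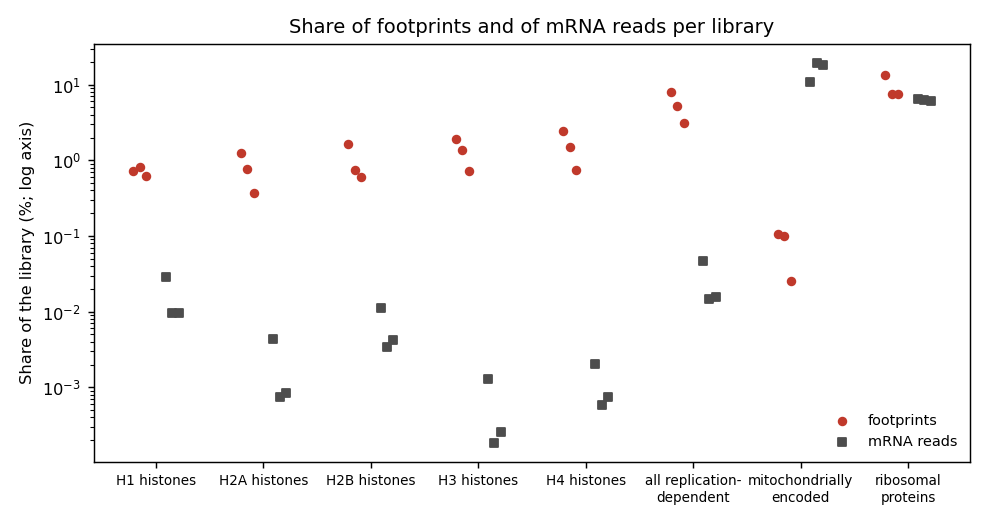
Share of each library, in percent on a log axis, taken by the histone classes, the mitochondrially encoded genes and the ribosomal protein genes, with red circles for the 3 Ribo-seq and dark squares for the 3 RNA-seq libraries in the order of organoids 1, 2 and 3. Histone shares are higher in all 3 Ribo-seq libraries (7.97%, 5.22% and 3.07% for all classes), and mitochondrially encoded shares are higher in all 3 RNA-seq libraries.

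The opposite end of the range was held by the genes of the mitochondrial chromosome, which encode core subunits of the respiratory chain and are translated by the mitochondrion's own ribosomes. The 13 genes took 10.9%, 19.3% and 18.1% of the mRNA reads and 0.107%, 0.100% and 0.0255% of the footprints. Of the 10 tested, all were called below, with a median TE of -8.52, and without organoid 1 all 11 tested were. The lowest was mt-Nd1, a subunit of complex I, at -10.36 ± 0.71 (edgeR adjusted p = 5.49e-05), with 82, 27 and 36 footprints against mRNA densities of 11049, 18962 and 17742. The highest was mt-Nd6 at -4.79 ± 0.58. TE was highest in organoid 1 for 9 of the 10. The pulldown used a tag on a protein of the cytosolic ribosome, which mitochondrial ribosomes lack; how far that sets these values was not tested.

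The nuclear partners of the same complexes lay on the other side of the median gene. The electron transport chain is built from both sets of subunits, so the encoded proteins meet in most of its complexes. Among the 36 nuclear genes of complex I, 33 were above and none below, with a median TE of 1.52, or 2.86-fold. Among the 40 nuclear genes of complexes II to V, 35 were above and none below, with a median of 1.48. Both lists were well over the 22.0% of all genes called above. Ndufb2, an accessory subunit of complex I (chr6:39592574-39603382), led with footprint densities of 241, 142 and 122 and mRNA densities of 5.28, 4.18 and 4.31. Its TE was 4.20 ± 0.31 (edgeR adjusted p = 6.02e-05), and Ndufab1 and Ndufs7 followed at 2.53 and 2.29, the latter at 1.31 with read-weighted lengths. The long subunit Ndufs1, of the part of the complex that takes electrons from NADH, stood at 0.27 ± 0.17 and did not pass (edgeR adjusted p = 0.233).

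In complexes II to V, Uqcrq of complex III stood at 3.15 ± 0.36 and Atp5j2 of the ATP synthase at 3.05 ± 0.38. Cycs, which encodes cytochrome c, had 3.75 ± 0.28, but all of its windows are shared with another gene, so its value is uncertain. Atp5b, the catalytic subunit of the ATP synthase, was at 0.37 ± 0.20 (edgeR adjusted p = 0.169) with footprint densities of 2008, 2230 and 1880 over mRNA densities of 786, 803 and 789. Sdha of complex II was at 0.00. The 75 mitochondrial ribosomal protein genes, which make the ribosomes that translate the mitochondrial mRNAs, had a median of 1.17, with 55 above and 1 below. Mrps25 had nearly equal footprint densities of 135, 132 and 135 over mRNA densities of 6.10, 4.75 and 5.29, with a TE of 3.65 ± 0.21 (edgeR adjusted p = 2.73e-05). Mrpl57 was at 3.77 and Mrps14 at 2.86, and Mrpl37 was the member called below, at -0.76 (edgeR adjusted p = 0.00908).

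Organoid 1 had the highest TE for 36 of 36 genes of complex I, 40 of 40 of complexes II to V and 70 of 75 mitochondrial ribosomal proteins. Without number 1 in either assay the medians were 0.98, 1.04 and 0.95, with 31, 32 and 51 genes above and 0, 0 and 4 below. These genes are also short. Centred within the length bins, the medians were 0.47, 0.67 and 0.46, with 8, 18 and 25 genes above and 0, 0 and 3 below. Beside the 15.5% of all genes called above in that setting, the 8 of 36 for complex I are near the background.

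Coding length was the feature most closely related to TE of those examined. Over 8720 genes the Spearman correlation was -0.580, and over the 1799 genes with a single entry in each reference, where no weighting of entries can enter, it was -0.595. These are descriptions across genes. The genes were split into 5 bins of equal size by coding length. In the bin with the shortest coding sequences, 78 to 693 bases, the median TE was 0.87, and 21.1% were called 2-fold above. Medians then stepped down through 0.28, -0.03 and -0.29 to -0.80 in the bin with the longest, 2508 to 20613 bases, where 0.115% were called 2-fold above and 17.3% 2-fold below. The order of the bins was the same in each organoid, and the step was largest in number 1, from 1.31 to -1.20. Genes called 2-fold above had a median coding length of 465 bases, those called 2-fold below 2632.5 bases and all tested genes 1362 bases. The entries of the Ribo-seq reference were coding sequences with 46 bases added, and cycloheximide and RNase I were used on all Ribo-seq samples; their part in the relation was not tested.

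Upstream AUGs went with lower TE as well. The 4657 genes without any had a median of 0.17. Medians were -0.14 with 1 (1957 genes), -0.31 with 2 (828 genes) and -0.45 with 3 or more (1177 genes). Within 10 bins of coding length they were 0.11, -0.11, -0.21 and -0.22, so a smaller step remained. The sequence around the main start codon showed less. Genes with A at the position 3 bases before it and G right after it had a median of 0.06 over 2022 genes, while genes with a pyrimidine at that upstream position had -0.19 with the G (559 genes) and -0.13 without (503 genes). Leaders in the top bin of 5 by GC content, 73.7% to 97.9%, had a median of -0.32.

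**Figure D3:**
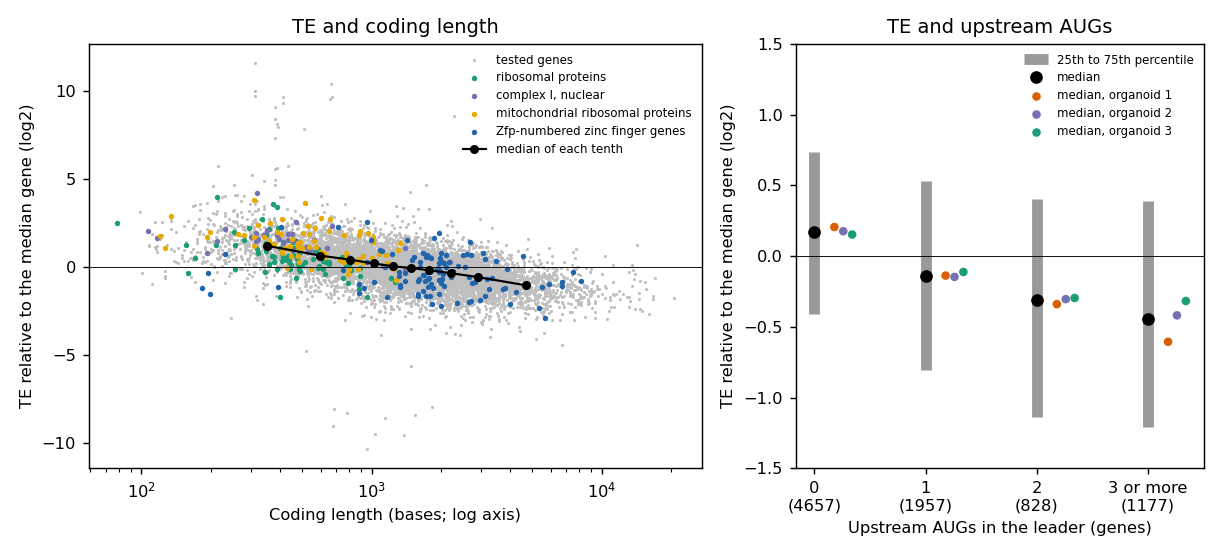
Left, TE (log2, relative to the median gene) against coding length in bases on a log axis for the tested genes, with members of 4 lists in colour and the black line through the medians of 10 bins of genes; right, TE by the number of upstream AUGs, with the median, the 25th to 75th percentile and the median in each of the 3 organoid numbers. The line falls from the shortest to the longest genes, and the medians by upstream AUGs step from 0.17 to -0.45.

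Ribosomal proteins are encoded by TOP mRNAs, the best known targets of mTORC1 at the level of translation. Of 81 tested genes, 27 were above, 6 below and 48 passed in neither direction, with a median TE of 0.40, beside a background of 22.0% above and 23.2% below. This list depended on organoid 1 and on length. Its median was 1.14 in number 1, -0.04 in number 2 and 0.02 in number 3, and TE was highest in number 1 for 78 of 81 genes. Without number 1 the counts were 26 above and 19 below with a median of 0.04. Against genes of like coding length the median turned to -0.45, with 7 above and 27 below. No direction for the list therefore holds under all of these settings.

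Its members spread widely. Rpl38, a small protein of the large subunit (chr11:114668524-114672331), had footprint densities of 9916, 4108 and 3478 over mRNA densities of 176, 197 and 198, and a TE of 3.95 ± 0.42 (edgeR adjusted p = 0.00021). With entry lengths weighted by their reads its TE was 2.23. Rpl22, the protein whose tagged form was pulled down, had footprint densities of 1344, 793 and 653 over mRNA densities of 46.0, 45.4 and 43.6. That is a TE of 3.38 ± 0.30 (edgeR adjusted p = 0.000106), and 1.05 with read-weighted lengths. At the other end, Rplp0, the base of the ribosomal stalk, had footprint densities of 548, 451 and 325 below mRNA densities of 793, 696 and 698. Its TE was -1.72 ± 0.25 (edgeR adjusted p = 0.000791). Rps2 stood at -1.24 ± 0.23. Rps12 at -1.71 ± 1.00 did not pass, with footprint densities of 551, 4.37 and 184 and 64.4% of its windows shared.

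The 22 other TOP mRNAs, which encode elongation factors and further parts of the translation machinery, had 4 above, 8 below and a median TE of -0.26. Without organoid 1 the counts were 5 and 9, and within the length bins 2 and 8. With the replicate number as a block they were 1 and 7. Pabpc1, the polyA binding protein, had footprint densities of 214, 232 and 310 over mRNA densities of 334, 266 and 256, and a TE of -1.17 ± 0.23 (edgeR adjusted p = 0.00352). Eef1g, of the elongation factor 1 complex, and Tpt1 stood at -1.07 and -1.01. Eef1a1, the elongation factor that brings tRNAs to the ribosome, took 0.797%, 0.902% and 1.30% of all footprints in organoids 1, 2 and 3. Its TE was -0.63 ± 0.26 (edgeR adjusted p = 0.0800), with footprint densities of 2815, 3186 and 4593 over mRNA densities of 2762, 2809 and 2663. Btf3, of the nascent chain complex, was above at 1.25 ± 0.19.

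Of 31 translation initiation factors, 15 were above, 4 below and 12 passed in neither direction, with a median TE of 0.49. Without organoid 1 the counts were 18 above and 6 below, and within the length bins 9 and 4. Eif5a, which helps ribosomes past difficult peptide bonds, had footprint densities of 954, 656 and 615 over mRNA densities of 43.3, 39.7 and 39.7. Its TE was 3.19 ± 0.25 (edgeR adjusted p = 6.74e-05), and 1.47 with read-weighted lengths. Eif1ax, a small factor in scanning, was at 2.35. The value of Eif3j1, 2.69, is uncertain because 99.7% of its windows are shared. The lowest was Eif4g2, a relative of the scaffold eIF4G without the site for the cap-binding protein, at -2.21 ± 0.23 (edgeR adjusted p = 0.00021). Its footprint densities were 22.6, 32.9 and 35.5 and its mRNA densities 72.6, 70.0 and 68.6, so every organoid had fewer footprints than mRNA on this scale. Eif4g3 stood at -1.18, or -0.12 within the length bins.

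Among 14 tested mRNAs known for uORF control under stress, the direction was mixed, with 2 above, 4 below and a median TE of -0.18. The median lay above 0 with effective lengths (0.36) and over the 4 single-entry genes (0.030). Without organoid 1 the counts were 4 and 5 of 15. The Atf4 mRNA had footprint densities of 8.47, 16.4 and 19.3 over mRNA densities of 71.2, 52.6 and 50.0. Its TE was -2.95 ± 0.32 (edgeR adjusted p = 0.000216), the lowest of the list, and it was lowest in organoid 1. With read-weighted lengths it was -2.01. Ppp1r15b, which recruits a phosphatase to eIF2, and Ibtk were both at -1.57, and Mdm2, the ubiquitin ligase of p53, was at -1.55. Within the length bins Ppp1r15b was at -1.20 and Ibtk at -0.51. Hspa5, an ER chaperone, stood above at 1.89 (0.75 with read-weighted lengths) and Cebpb, a transcription factor, at 2.37. The deposited Ribo-seq files also count footprints on 5′ entries, which did not enter TE. There Atf4 had 55, 20 and 56 footprints, against 25, 27 and 122 on its coding entries. Ppp1r15b had 75, 50 and 148 against 68, 39 and 275. Footprints on the 5′ entries outnumbered those on the coding entries in organoid 1 for Atf4 and in organoids 1 and 2 for Ppp1r15b. Over genes with a 5′ entry, the median share of a gene's footprints on it was 3.93% (8064 genes). It was 15.3% in the list, 10.7% in the genes called 2-fold below and 2.84% in those called 2-fold above. Coding footprints enter both this share and TE, so the difference between the called groups follows in part from how they were chosen.

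Polyamine metabolism, in which ornithine is turned into putrescine, spermidine and spermine, is controlled by its products through the leaders and frames of its own mRNAs. Of 10 tested genes, 5 were below, none above, with a median TE of -0.85, or 0.557-fold. Odc1, the rate-limiting decarboxylase, had footprint densities of 63.6, 32.2 and 57.0 over mRNA densities of 49.8, 40.6 and 46.7, and a TE of -0.83 ± 0.26 (edgeR adjusted p = 0.0288), or -1.56 with read-weighted lengths. Amd1, which supplies the aminopropyl groups, stood at -2.07 ± 0.21 (edgeR adjusted p = 0.000199), but 97.1% of its coding windows are shared with another gene. Its 5′ entries held 27, 9 and 32 footprints. Azin1, which binds antizyme in place of Odc1, had -1.45 ± 0.23 (-2.11 with read-weighted lengths), and its 5′ entries held 78, 46 and 152 footprints against 37, 31 and 136 on its coding entries. Here the 5′ entries held more than the coding sequence in all 3 organoids. The antizyme genes Oaz2 and Oaz1 stood at -1.30 and -0.40, and the latter did not pass. Smox, which oxidises spermine, was at -1.17 (-0.38 with read-weighted lengths), and Srm, spermidine synthase, at 0.09 did not pass. Without organoid 1 the counts were 7 below and none above.

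Intestinal stem cell genes spread over both sides of the median gene, with 5 above, 2 below and 14 passing in neither direction of 21 tested, at a median TE of 0.06. Olfm4, a secreted glycoprotein of crypt base cells (chr14:79984081-80023139), had footprint densities of 120, 279 and 366 over mRNA densities of 32.7, 8.84 and 11.5. Its TE was 2.86 ± 0.57 (edgeR adjusted p = 0.00342). Sox9, a transcription factor of the crypt, stood at 2.54 ± 0.48 (edgeR adjusted p = 0.00292) with footprint densities of 62.0, 285 and 170 over mRNA densities of 19.5, 13.9 and 11.2. In both genes organoid 1 was low in footprints and high in mRNA. Ascl2, the transcription factor that maintains the stem cell programme, was at 2.53 ± 0.36 (edgeR adjusted p = 0.000717).

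The 2 called below were Znrf3 at -1.94 ± 0.32 and Rnf43 at -1.82 ± 0.47, the ubiquitin ligases that remove WNT receptors from the cell surface. Lgr5 (ENSMUSG00000020140.15, chr10:115450311-115587780), the receptor for R-spondin that holds these ligases off, had footprint densities of 43.9, 59.2 and 81.3 over mRNA densities of 36.6, 20.9 and 21.3. Its TE of 0.23 ± 0.30 did not pass (edgeR adjusted p = 0.559). Axin2, a WNT target that dampens the pathway, was at -0.48 and Myc at 0.16, neither past the threshold. Organoid 1 had the lowest TE for 19 of the 21 genes and the highest mRNA for 20. Without it, 11 were above and 2 below, with a median of 0.57, and within the length bins 9 and 2, with a median of 0.65. Fth1, the ferritin heavy chain with an iron-responsive element in its leader, did not pass at -0.17 ± 0.32.

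Among 17 tested genes of the mTORC1 pathway, 5 were above, 4 below and 8 passed in neither direction, with a median TE of 0.04. These shares, 29.4% above and 23.5% below, are near the 22.0% and 23.2% of all tested genes. Among the members called above were small subunits of Ragulator, which anchors mTORC1 to the lysosome, with Lamtor4 at 2.31 ± 0.24 (edgeR adjusted p = 0.00019) and Lamtor2 at 1.85 ± 0.28. Eif4ebp1, the inhibitor of cap binding that mTORC1 phosphorylates, was at 1.24 ± 0.28. Among those called below were genes of the tuberous sclerosis complex, which switches mTORC1 off, with Tsc1 at -1.80 ± 0.24 and Tsc2 at -1.33 ± 0.21, and the kinase Mtor was at -1.12 ± 0.27. Rptor, the subunit by which mTORC1 binds substrates, had footprint densities of 1.93, 6.04 and 2.92 over mRNA densities of 3.88, 2.97 and 3.07. Its TE of -0.93 ± 0.36 did not pass (edgeR adjusted p = 0.0626). Within the length bins 1 gene of the pathway was above and 2 were below (Eif4ebp1 at 0.05, Tsc2 at -0.28 and Mtor at -0.06), and without organoid 1 the counts were 4 above and 6 below of 18.

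**Figure D4:**
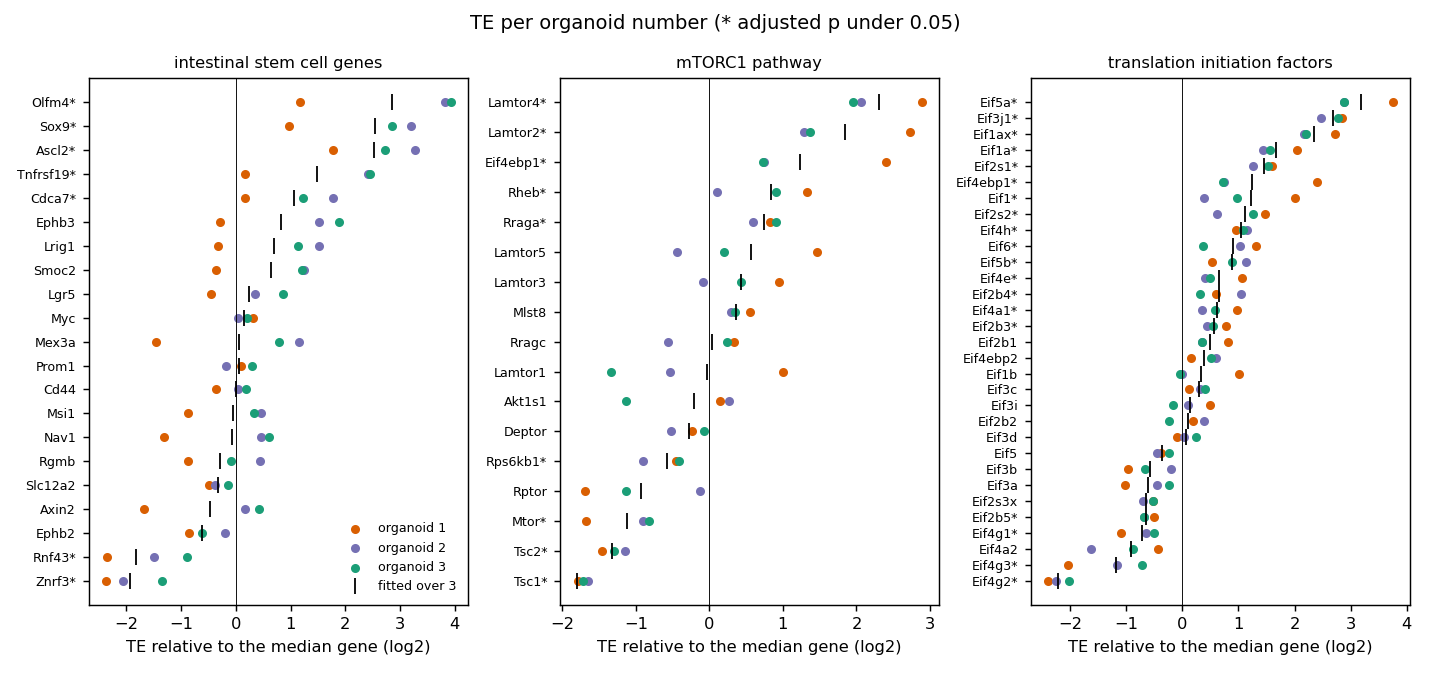
TE (log2, relative to the median gene) of each tested intestinal stem cell gene, mTORC1 pathway gene and translation initiation factor in organoids 1, 2 and 3 (coloured points), with the value fitted over all 3 as a black tick and an asterisk at genes with an adjusted p under 0.05. Among the stem cell genes, organoid 1 gives the lowest value for 19 of 21, while Lgr5 and Rptor carry no asterisk.

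Of 19 core glycolysis genes, 8 were above and none below, with a median TE of 0.52. Aldoc, an aldolase, stood at 1.83 ± 0.28, or 0.58 with read-weighted lengths. Hk2, a hexokinase that starts the pathway, had footprint densities of 19.6, 34.2 and 27.5 over mRNA densities of 8.78, 5.19 and 5.39 and a TE of 1.07 ± 0.28 (edgeR adjusted p = 0.0137). The glucose carrier Slc2a1 was at 0.97. Pfkm, a phosphofructokinase, was lowest at -0.23 and did not pass. Within the length bins the list again had 8 above and none below, and without organoid 1 it had 11 above and none below. With read-weighted lengths 5 of the 19 were above, beside 20.6% of all genes. Leaving out RNA-seq library 1 alone gave 5 above (all genes 19.6%), and the replicate block gave 6 (20.1%). DESeq2 gave 11 (24.6%), and leaving out Ribo-seq library 1 alone gave 14 (22.7%). No gene of the list was below in these settings.

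The 14 genes of the 20S proteasome, the protein-degrading core whose subunits are needed in equal numbers, had 12 above, none below and a median TE of 0.81. Psma2 was highest at 2.00 ± 0.21 and Psma4 lowest at 0.25 ± 0.18. Organoid 1 had the highest TE for all 14, and without it 10 were above. Within the length bins 4 were above and none below, with a median of 0.41. Over its 14 genes the SD of log2 density was 0.662, 0.683 and 0.535 in footprints and 0.883, 0.876 and 0.879 in mRNA. Densities are per kb of summed entries, and these SDs were not taken with read-weighted lengths. On that scale footprint levels lay closer together than mRNA levels in each organoid. That was not particular to the proteasome. CCT chaperonin genes showed it in each organoid. Both nuclear respiratory chain lists and the mitochondrial ribosomal proteins showed it in organoids 2 and 3 and the reverse in organoid 1. Ribosomal proteins showed it only in organoid 3. The 6 genes of the MCM helicase, which unwinds DNA at replication forks, had 1 above, none below and a median TE of 0.30. Within the length bins 4 were above, with a median of 0.78. Mcm7 was the member that passed, at 0.63 ± 0.22 (edgeR adjusted p = 0.0425), and Mcm6 was lowest at -0.04. With read-weighted lengths none of the 6 passed, and none did with the replicate number as a block. Without organoid 1, 3 did. Their SD of log2 density was 0.709, 0.534 and 0.554 in footprints against 0.545, 0.552 and 0.515 in mRNA, higher in footprints in organoids 1 and 3 and slightly lower in organoid 2.

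Of 14 ER chaperones, which fold secreted proteins, 8 were above and none below, with a median TE of 0.83. Pdia3 and Calr, of the calreticulin cycle, stood at 1.16 and 1.04 and Manf at 1.27, while Hsp90b1 at 0.15 did not pass. Without organoid 1, 12 were above and none below. Cell cycle genes held to no side, with 6 above and 2 below of 21 and a median of 0.15, which was -0.035 over the 5 single-entry genes. Cdkn1b, the CDK inhibitor p27, was highest at 2.09 ± 0.33 (edgeR adjusted p = 0.00113), with footprint densities of 24.1, 65.0 and 35.9 over mRNA densities of 4.74, 4.80 and 4.90. Cdk1, the kinase of mitosis, stood at 1.60 (0.74 with read-weighted lengths). Bub1, of the spindle checkpoint, and Mki67, the proliferation marker, stood at -1.30 and -1.12, and within the length bins at -0.71 and -0.06. Without organoid 1 the counts were 8 above and 4 below.

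Zinc finger genes named Zfp, mostly DNA-binding proteins of few mRNA copies, lay low. Of 361 in the references 113 were tested, with 12 above, 44 below and a median TE of -0.50. The others had too few reads and are not described by these counts. Without organoid 1, 154 were tested, with 30 above and 68 below. Zfp106 was lowest at -2.89 ± 0.26 (edgeR adjusted p = 0.000131), with footprint densities of 3.92, 7.15 and 6.46 over mRNA densities of 24.3, 21.1 and 19.7. Zfp771 was highest at 2.55 ± 0.58 (edgeR adjusted p = 0.00661). Within the length bins the counts were 15 above and 27 below, with a median of -0.10.

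**Figure D5:**
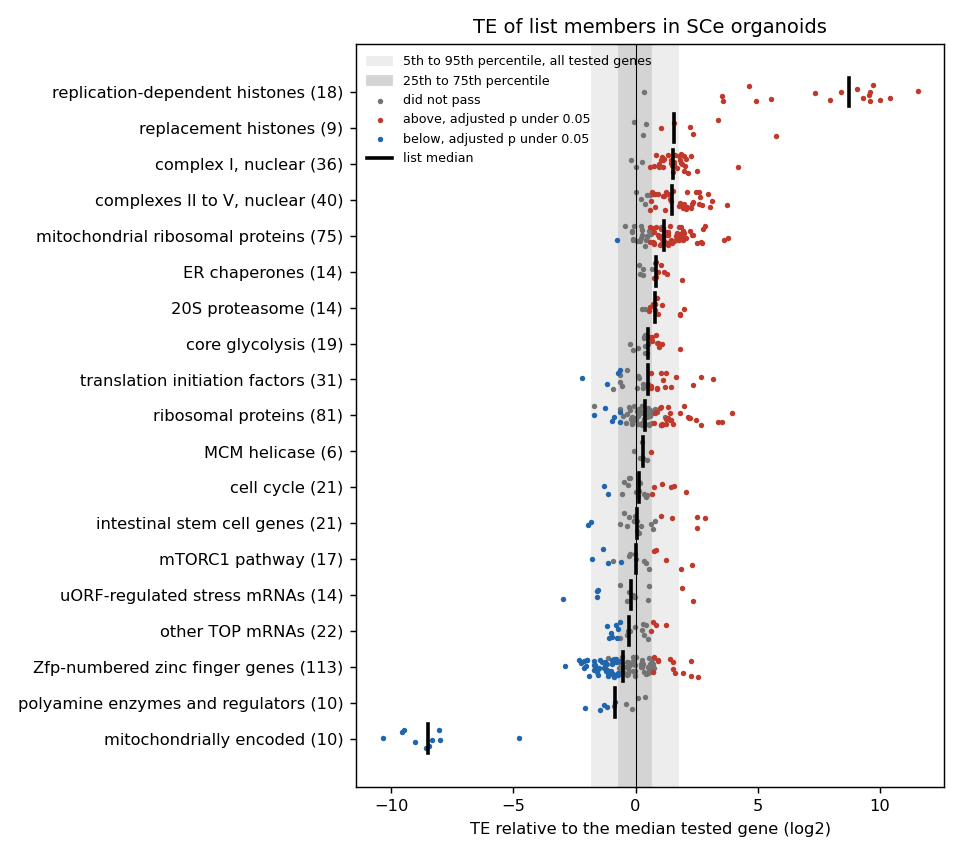
TE (log2, relative to the median tested gene) of every tested member of the gene lists, with list medians as black bars, genes called above in red, genes called below in blue and the others in grey, over bands for the 5th to 95th and the 25th to 75th percentile of all tested genes. Nuclear respiratory chain lists sit to the right (medians 1.52 and 1.48), polyamine and Zfp genes to the left (-0.85 and -0.50), and the histone and mitochondrially encoded lists lie far outside the bands.

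Over all tested genes, 560 with at least 100 reads in each assay, members of the lists included, passed the 2-fold test under both length choices, on the same side in all 3 organoids, 287 above and 273 below. The highest that is no core histone or linker histone was Zbed5 (chr5:129895723-129903623), a protein derived from a transposase, with footprint densities of 189, 169 and 92.5 over mRNA densities of 0.174, 0.240 and 0.168. Its TE was 8.57 ± 0.40 (edgeR adjusted p = 1.67e-05), or 10.48 with read-weighted lengths, and 16.7% of its windows are shared. Gm11808 at 8.11 and Gm21988 at 5.73 share all of theirs, so their values are uncertain. The lowest nuclear gene was Lars2, the mitochondrial leucyl-tRNA synthetase (chr9:123366927-123462666), with footprint densities of 5.44, 4.33 and 6.16 under mRNA densities of 166, 102 and 136. Its TE of -5.64 ± 0.30 (edgeR adjusted p = 2.73e-05) was nearly equal in the 3 organoids, at -5.62, -5.69 and -5.53. Shared windows were looked for in coding sequences only. Whether its mRNA reads include some from other RNAs that resemble its untranslated regions was not tested. 2610507B11Rik followed at -4.43 ± 0.29 and Mast2, a kinase of the microtubules, at -4.10 ± 0.23.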

How the data were processed

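RNA-seq and HA-pulldown Ribo-seq of SCe organoids were analysed, 3 libraries each, grouped by their labels. The authors trimmed adapters (cutadapt 1.18), removed rRNA fragments and quantified reads with Salmon 1.1.0 on GENCODE vM21, on protein-coding transcripts for RNA-seq and on sequences with trimmed untranslated regions for Ribo-seq. The deposited values used were estimated counts per entry, not scaled for depth, with each entry's length. The deposited TPM was not used. Footprints on 5′ entries (6.985%, 5.421% and 2.97% of the reads in Ribo-seq libraries 1, 2 and 3) were kept out of TE.

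Each gene's estimated counts were added up over its entries, rounded and passed to edgeR 4.0.16 (R 4.3.3; filterByExpr in each assay alone; quasi-likelihood test and, for 2-fold calls, glmTreat; Benjamini-Hochberg over 8720 genes at 0.05). The offset held the library total, the summed entry length and a centre that put the median gene at 0. Densities are RPM per kb. Per-organoid TE used a pseudocount of 0.5 reads. Coding lengths, leaders and upstream AUGs came from the GENCODE annotation of the transcript with most reads. The design was also run on simulated counts, built from the means and dispersions of the main fit. Named genes were the 12 highest and 12 lowest that passed both length choices on the same side in all 3 organoids with at least 100 reads in each assay, the 3 highest and 3 lowest of each list, all members of lists of 14 or fewer, and 12 genes of prior interest, of which those described are given; a gene that this rule names is not reported here. Genes shown only for their sequence were chosen after their values were seen. Members and lists were chosen with earlier results of these data known. Alternatives were DESeq2 1.42.0, TMM, other filters, lengths and totals, single-entry genes, a replicate block and each library left out. Intervals from depth cover counting error only and none are given.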

Additional observations from a re-analysis of the deposited data

How the results depend on the processing

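Ribo-seq depth was the narrower limit, with a median of 283 footprints per tested gene against 6920 mRNA reads. Reads on sequence shared between genes, the single culture state and an unstated pairing limit the values further.

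Of the counts of called genes, 61 stayed within 1.5 times their value and 11 did not. DESeq2 called 369 genes 2-fold below. A filter passed in either assay gave 3244 genes above, and 1030 above and 1097 below at 2-fold, and recentring there put the median of the 8720 genes at 0.38 (0.17 without a count filter), so their TE rose alike by construction. Read-weighted effective length gave 831 genes 2-fold above. The 1799 single-entry genes gave 292 above and 344 below, and 100 and 92 at 2-fold, where fewer genes are tested by construction. Centring within 10 bins of coding length, added after the data were seen, gave 196 and 287 at 2-fold.

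Of the list medians, 275 moved by less than the spread between organoids, 41 by more, and 7 by more with a change of sign. With the filter in either assay, after that common shift, they were 0.12 for other TOP mRNAs, 0.88 for initiation factors, 1.97 for replacement histones, 0.21 for uORF mRNAs, 0.90 for glycolysis, 1.19 for the 20S proteasome, 0.68 for MCM, 0.53 for cell cycle, -0.11 for Zfp genes, 1.21 for ER chaperones and 0.42 for mTORC1. Without a count filter they were 0.67 for initiation factors, 0.0004025 for uORF mRNAs and 0.32 for cell cycle, which was 0.53 with read-weighted length. With effective length they were 2.08 for replacement histones, 0.36 for uORF mRNAs, -0.15 for polyamine genes, 0.43 for cell cycle and 0.69 for mTORC1. Over single-entry genes they were -0.91 for other TOP mRNAs (8 genes), 1.23 for initiation factors (5 genes) and 2.82 for replacement histones (2 genes). They were 0.030 for uORF mRNAs (4 genes), -0.13 for polyamine genes (1 gene), -0.035 for cell cycle (5 genes) and 0.83 for mTORC1 (4 genes). Within the length bins they were -0.45 for ribosomal proteins, 0.27 for initiation factors, 7.55 for replication-dependent and 0.41 for replacement histones, -0.59 for uORF mRNAs, 0.47 for complex I, 0.46 for mitochondrial ribosomal proteins, 0.41 for the 20S proteasome, 0.78 for MCM, -0.10 for Zfp genes and 0.65 for stem cell genes, and H2afz (-0.15) and Psmb2 (-0.079) turned below 0. Over genes with under 10% shared windows, also added after the data were seen, replication-dependent histones had 10.6 (2 genes) and replacement histones 1.05 (7 genes). Leaving out libraries gave 8.04 to 9.61 for replication-dependent histones, -0.35 to -0.14 for uORF mRNAs and 0.14 to 0.30 for cell cycle. Medians near 0 also changed sign within the spread between organoids. Stem cell genes had -0.15 over single-entry genes and -0.039 without Ribo-seq library 3. The mTORC1 genes had -0.067 without Ribo-seq library 1, -0.0029 without RNA-seq library 3 and -0.063 within the length bins. Apart from the common shift of the filter settings and the smaller gene sets, the cause of these shifts was not tested.

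Of the values of named genes, 2518 kept their direction and side of the threshold, 83 passed it in addition and 116 no longer did.

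Whether equal replicate numbers in both assays are the same culture remains unstated. Deviations from the assay means correlated at 0.183, 0.0549 and 0.143 between the assays for numbers 1, 2 and 3. Ribo-seq 1 correlated at -0.159 and -0.183 with RNA-seq 2 and 3. Ribo-seq 2 was closest to RNA-seq 3 (0.0823), and Ribo-seq 3 correlated at 0.139 with RNA-seq 2 and -0.152 with RNA-seq 1. With the replicate block, 1751 genes were above and 1862 below, 479 and 503 at 2-fold, and the uORF median was -0.23. Of the named genes, the block took Mcm7, Hnrnpa1, Nap1l1, Psma1 and Psmb2 out of the calls and brought in Rptor (edgeR adjusted p = 0.0454), Rps12, Eif4a2 and Sat1.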
